A study of Homo sapiens with 12 samples.

Results

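The table held a row for 774 microRNA genes, and 457 of them were detected. These 457 genes are described here. They were selected on their own values: the symbol starts with MIR and a digit or with MIRLET, host genes ending in HG were left out, and 3 or more of the 12 libraries reached an FPKM of 1. FPKM is the number of sequenced fragments on a gene, scaled to its length in kilobases and to the size of the library. The whole table had 43876 genes, of which 18574 passed the same threshold and were tested. Detection is therefore a description here, with no test.

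The libraries came from MV4-11, a human line of acute myeloid leukemia with an internal tandem duplication in the receptor kinase gene FLT3, and the labels give its genotype as wild-type. The cells were treated for 24 h with DMSO, the solvent control; with mitoxantrone at 20 nM, given as a liposome in the study's text and named Mito-Lipo; with Gilteritinib at 25 nM; or with both drugs at 20 nM each, named Com. Mitoxantrone is a topoisomerase II poison, and gilteritinib inhibits FLT3. Each condition had 3 libraries, numbered 1 to 3. No source used here says that they came from separate cultures, so a p-value measures the spread between these libraries, which may be technical. Com against DMSO asks what the combination did, Com against each single drug asks what the second drug added, and the gilteritinib doses of Com and of Gilteritinib alone were unequal.

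A microRNA is cut from a hairpin within a longer primary transcript. The enzyme Drosha, with its partner DGCR8, releases the hairpin in the nucleus, exportin 5 carries it out, and Dicer cuts it to a short mature strand that Argonaute proteins load. The bases from the second to the eighth position, called the seed, pair with messenger RNAs, which are then repressed. Many hairpins lie in introns of protein-coding genes and are transcribed with their host. In blood cells, microRNAs such as those of the MIR181, MIR221 and MIR15 families are known for parts in differentiation and leukemia.

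These libraries were made from reverse-transcribed and amplified RNA cut with a transposase, not from size-selected small RNA. The values therefore count fragments of longer RNA that overlap the annotated hairpin, and not mature microRNA. No strand was stated for the counting, so reads of a microRNA gene, of the intron around it and of a gene on the other strand cannot be told apart. In bulk RNA, fewer cells of a type and less RNA per cell cannot be told apart either.

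Mature sequences of the genes that the results turn on are given first, 5′ to 3′, with the seed in capitals. They are RefSeq sequences on GRCh38.p14, where 427 of the 457 genes had an entry by symbol, with 599 mature strands. MIR4316 is shown because it was the 1 gene called between conditions, MIR593, MIR1286, MIR4694 and MIR4505 because they stood at the top of comparisons, and MIR1537 because it was the most abundant after MIR3648-1:
hsa-miR-4316: gGUGAGGCuagcuggug
hsa-miR-593-5p: aGGCACCAgccaggcauugcucagc
hsa-miR-593-3p: uGUCUCUGcugggguuucu
hsa-miR-1286: uGCAGGACcaagaugagcccu
hsa-miR-4694-3p: cAAAUGGAcaggauaacaccu
hsa-miR-4505: aGGCUGGGcugggacgga
hsa-miR-1537-3p: aAAACCGUcuaguuacaguugu

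The hairpin of MIR4316 has 71 bases and lies on the minus strand at chr17:77396984-77397054 (GRCh38), inside an intron of SEPTIN9, which is transcribed from the plus strand. The capitals mark the mature strand, bases 11 to 27 of the hairpin:
MIR4316 hairpin: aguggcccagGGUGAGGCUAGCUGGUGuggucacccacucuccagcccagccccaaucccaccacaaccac

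The 599 mature strands held 542 different seeds, and 41 seeds were shared by at least 2 detected genes, 90 genes in all. The widest shared seed was that of the family of MIR301A and MIR454, which 5 detected genes carried. It includes MIR4295, 1 of the genes named for Com against DMSO:
hsa-miR-301a-3p: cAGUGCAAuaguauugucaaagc
hsa-miR-301b-3p: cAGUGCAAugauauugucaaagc
hsa-miR-454-3p: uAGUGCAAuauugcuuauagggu
hsa-miR-3666: cAGUGCAAguguagaugccga
hsa-miR-4295: cAGUGCAAuguuuuccuu

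Groups known from blood cells also shared seeds, and their values follow further on. MIR181A1, MIR181A2, MIR181B1 and MIR181B2 share 1 seed, MIR15B, MIR16-1 and MIR16-2 share another, MIR221 and MIR222 share theirs, and MIR25 shares its seed with MIR32 and MIR367:
hsa-miR-181a-5p: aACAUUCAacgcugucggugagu
hsa-miR-181b-5p: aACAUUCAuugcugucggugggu
hsa-miR-15b-5p: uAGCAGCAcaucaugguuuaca
hsa-miR-16-5p: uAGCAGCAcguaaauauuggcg
hsa-miR-221-3p: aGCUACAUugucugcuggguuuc
hsa-miR-222-3p: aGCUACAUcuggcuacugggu
hsa-miR-25-3p: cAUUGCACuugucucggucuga

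The position of a microRNA gene went with whether it had a row at all. GENCODE release 29, on GRCh38, annotates 1878 microRNA genes by the same symbol rule, and 786 of them had a row, 12 of these under another symbol in the table. Of 1103 that lie in an intron of another gene, 635 (57.6%) had a row and 412 (37.4%) were detected. Of 397 that overlap an exon of another gene, 35 (8.82%) had a row and 9 (2.27%) were detected. Of 378 outside other genes, 116 (30.7%) had a row and 36 (9.52%) were detected. Where the host had a mean FPKM of at least 10, the shares detected were 239 of 328 (72.9%) for introns and 6 of 136 (4.41%) for exons, so the gap between introns and exons was also there among well-expressed hosts.

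Some microRNA genes well known in myeloid cells were not among the detected. MIR155, MIR223 and MIR142 had no row in the table used here, although their host transcripts were measured. MIR223HG had a mean FPKM of 62.1 over the 12 libraries, MIR155HG of 26.4, MIR17HG of 24.6 and MIR142HG of 11.6. What the table says of these microRNAs is thus the level of the host. The 9 detected exon genes include MIR718 in IRAK1, a kinase of Toll-like receptor signaling, at a mean FPKM of 1.33 against 70.6 for its host, and MIR29A in LINC-PINT, at 0.646.

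Of the 352 genes in an intron on the same strand, 351 had a host row, and 296 of these had a lower mean FPKM than their host. The median ratio of gene to host was 0.314. Over these 351 genes, which share libraries and lie in 319 hosts, the Spearman correlation of mean FPKM between gene and host was 0.364. A well-expressed host did not fix the level of the hairpin: MIR593 had 8.92 FPKM in SND1 at 116, and MIR1537 had 126 in LYST, the lysosomal trafficking regulator, at 135.

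Few fragments stood behind these values. The genes were 45 to 180 nt long, with a median of 81 nt. Fragment numbers were recovered from the steps that single fragments make in the FPKM values, and all 12 values of each of the 774 microRNA genes came out whole at the annotated length, to within 0.00723 of a fragment. The recovered depth was 31725010 to 41330678 fragments per library. A single fragment on a gene of 81 nt was worth 0.299 to 0.389 FPKM, so 1 FPKM was about 3 fragments. On a transcript of 3000 nt a single fragment in the deepest library would be worth 0.00807 FPKM.

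The 457 genes gave 5484 values. The median value rested on 9 fragments, with quartiles of 3 and 21. In 53.3% of the values there were fewer than 10 fragments, and 6.05% were 0. 249 of the 457 genes had fewer than 120 fragments in all 12 libraries together. All intervals given here cover counting error only, and amplified fragments without molecular identifiers are not independent molecules.

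**Figure D1:**
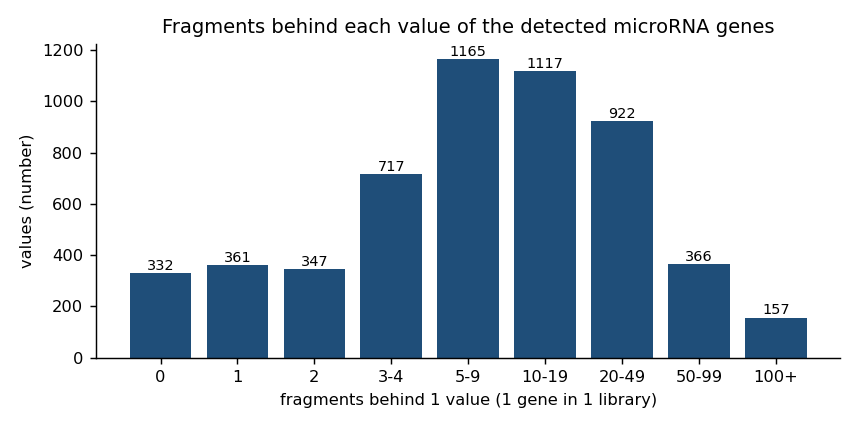
Number of values (y axis; 1 value is 1 gene in 1 library) by the number of fragments behind it (x axis) for the 457 detected microRNA genes. 332 values rested on 0 fragments, 1165 on 5 to 9, and 157 on 100 or more.

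The spread within a condition was set against counting error. An index was computed as the variance of fragments around the condition's share, divided by what Poisson counting expects, with 8 degrees of freedom. It is 1 for pure counting error. Its median over the 457 genes was 2.13, and it was over 1 for 396 of them, where counting error alone gives 198. The differences between replicate numbers are part of this spread. It was lowest for the 93 genes with 13 to 39 fragments in all, with a median of 1.46, and highest for the 92 genes with at least 293 fragments, with a median of 3.95. For MIR4316 it was 0.471, and for MIR378J 0.160.

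The threshold lay where few fragments decide. The 3 genes just inside it, ranked by the FPKM of the library that decided the matter, were MIR548Q at 1.0008, MIR331 at 1.006 and MIR5590 at 1.0064. The 3 just outside were MIR1276 at 0.982, MIR4769 at 0.975 and MIR501 at 0.970. Of the 457 genes, 225 were at 1 FPKM or more in all 12 libraries, and 34 in 3 libraries. 2 genes passed through 1 condition alone, MIR4694 through DMSO and MIR1286 through Mito-Lipo, and such a gene had to differ between conditions. 8 genes passed through libraries of replicate 1 alone, among them MIR718, MIR5190, MIR3181 and MIR149, and 1 through replicate 2 alone, MIR634.

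Mean levels ran from 0.411 to 788 FPKM, with a median of 3.04. 77 genes had a mean of 10 FPKM or more and 167 a mean under 2. The highest, MIR3648-1, stood apart from all others and is described with the replicate numbers. After it came genes of introns. MIR1537 read 149, 108 and 101 with DMSO, 141, 139.5 and 97.2 with Mito-Lipo, 146, 114 and 99.2 with Gilteritinib and 192, 114 and 108 with Com for replicates 1, 2 and 3, on 203 to 412 fragments. Its conditions overlapped, and the highest library was replicate 1 of Com.

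MIR1244-2 followed, at 88.8, 102 and 75.6 with DMSO, 72.1, 76.0 and 73.0 with Mito-Lipo, 114, 79.9 and 72.1 with Gilteritinib and 80.3, 87.3 and 71.3 with Com. It lies within PTMAP2, a pseudogene of the prothymosin gene, by the RefSeq annotation, so fragments of near-identical copies may be counted there and its value is uncertain. MIR548L, in an intron of the DNA repair nuclease gene MRE11, read 81.9, 43.4 and 52.9 with DMSO, 85.9, 63.4 and 40.4 with Mito-Lipo, 60.2, 47.4 and 36.2 with Gilteritinib and 59.2, 48.1 and 41.3 with Com. In each condition replicate 1 was the highest of the 3 libraries for MIR548L.

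The other 8 of the 12 highest had means of 35.4 to 54.0 FPKM: MIR3939, MIR3686, MIR4312, MIR548AQ, MIR5587, MIR3186, MIR6774 and MIR4740. Their hosts include ANP32A for MIR4312, the RNA-binding protein gene IGF2BP2 for MIR548AQ and IRF8, a transcription factor of the myeloid lineage, for MIR6774. MIR6774 read 44.4, 33.2 and 32.5 with DMSO, 56.0, 27.9 and 21.4 with Mito-Lipo, 57.4, 30.7 and 22.3 with Gilteritinib and 58.9, 29.7 and 28.5 with Com. Its replicate 1 libraries were the 4 highest values, and its host IRF8 averaged 314 FPKM in replicate 1, 196 in replicate 2 and 197 in replicate 3.

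**Figure D2:**
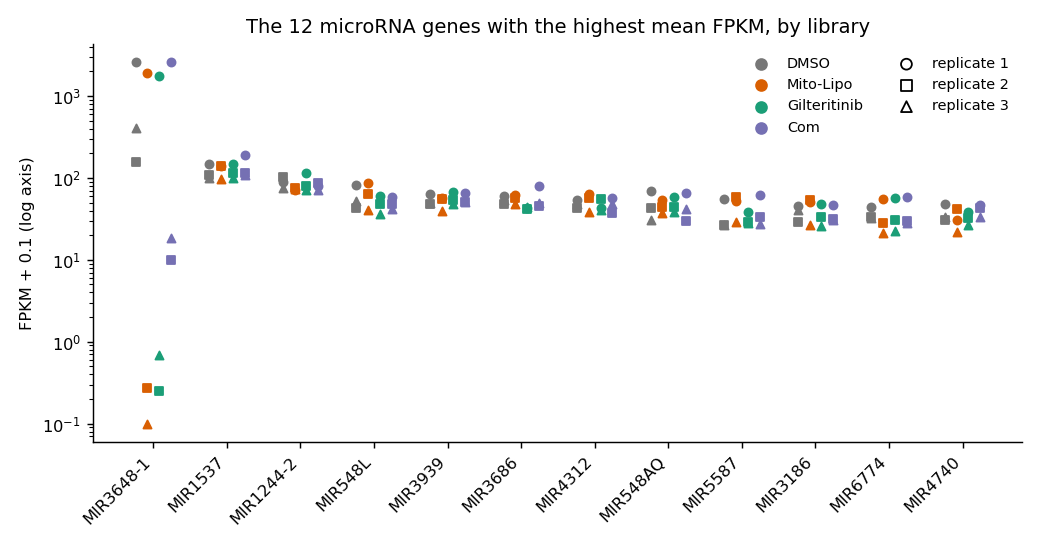
FPKM + 0.1 on a log axis (y axis) in each of the 12 libraries for the 12 microRNA genes with the highest mean (x axis); color gives the condition and marker shape the replicate number. MIR3648-1 spans 0 to 2600.2 FPKM, while MIR1537 spans 97.2 to 192.

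The largest name family was MIR548, with 20 detected genes of 32 with a row. Its hairpins derive from short inverted repeats of the MADE1 element, so copies are scattered over the genome, and reads may be shared among them. The 20 genes had means of 0.494 FPKM (MIR548Q) to 55.0 (MIR548L). MIR320 had 6 detected genes at 3.06 to 6.32 FPKM, MIR181 had 4 at 2.28 to 7.56 and MIR941 had 4 at 0.750 to 1.67.

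Between conditions, 1 of the 457 genes was called: MIR4316 in Com against DMSO. The test was limma on log2(FPKM + 1) over all 18574 genes tested, with Benjamini-Hochberg adjustment, and a call is an adjusted p under 0.05. On this scale a fold change of a low gene is understated. MIR4316 was the single call among all genes in this comparison (0.00538% of those tested), and it was known from earlier work on these data when the genes were chosen, so the call is no independent support.

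The FPKM of MIR4316 was 0, 0 and 0.427 with DMSO, 1.05, 0.888 and 1.06 with Mito-Lipo, 0.682, 0.383 and 0.372 with Gilteritinib and 3.603, 2.06 and 2.44 with Com. These values stand for 0, 0 and 1 fragments with DMSO, 3, 2 and 3 with Mito-Lipo, 2, 1 and 1 with Gilteritinib and 9, 5 and 6 with Com. All 3 Com libraries lay above all 9 others, and the DMSO libraries held the 2 zeros. Outside Com, only replicates 1 and 3 of Mito-Lipo reached 1 FPKM, so without its Com values MIR4316 would not have been tested. Its difference between Com and DMSO is thus partly tied to the threshold.

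Summed over 3 libraries, DMSO had 1 fragment, 0.134 FPKM (exact Poisson 95% interval 0.00339 to 0.746), and Com had 20 fragments, 2.71 FPKM (exact Poisson 95% interval 1.66 to 4.19). Mito-Lipo lay between, at 8 fragments, 1.01 FPKM (exact Poisson 95% interval 0.434 to 1.98), as did Gilteritinib, at 4 fragments, 0.486 FPKM (exact Poisson 95% interval 0.132 to 1.24). The Poisson intervals of DMSO and Com did not overlap, and that of Mito-Lipo overlapped with all 3 others.

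In the test, Com exceeded DMSO (log2 difference 1.70 ± 0.19 (SE), limma unadjusted p = 2.1e-06, adjusted p = 0.0399; higher in 3 of 3 libraries). With the replicate number as a block, the adjusted p in limma was 0.067. It was also above 0.05 with a pseudocount of 0.1 (0.561), with no filter (0.105), with the 6 libraries of the comparison alone (1.0), in voom on the fragments (1.0) and without any 1 of 11 of the 12 libraries (up to 0.350). The log2 difference of MIR4316 was 1.31 ± 0.19 (SE) in Com against Gilteritinib and 0.87 ± 0.19 in Com against Mito-Lipo, with limma adjusted p of 0.443 and 0.709.

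SEPTIN9, a cytoskeletal GTPase gene on the other strand of MIR4316, had 33.8 ± 3.75 FPKM (SD, n = 3) with DMSO and 35.6 ± 2.67 with Com, a log2 difference of 0.08 (limma unadjusted p = 0.396). Its level was 39.3 ± 1.54 with Mito-Lipo and 34.3 ± 0.593 with Gilteritinib. The part of reads from SEPTIN9 in the values of MIR4316 was not tested.

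The detected genes whose levels followed MIR4316 most closely over the 12 libraries, by Pearson correlation of log2(FPKM + 1), were MIR4295 (0.84), MIR4484 (0.83), MIR4420 (0.66), MIR4263 (0.65) and MIR185 (0.62). They share the libraries and their depth, and the 5 were picked as the highest of 456, so the correlations are descriptions. MIR4484, in an intron of UROS on the other strand, read 8.56, 8.48 and 8.35 FPKM with Com and between 4.77 and 7.24 in the 9 other libraries.

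In Com against DMSO, 25 of the 457 genes had an unadjusted p under 0.05, 14 of them higher in Com. That is 5.47% of the genes, against 1.67% of all genes tested and 3.91% of the 1508 other tested genes of at most 200 nt. With no true difference, an unadjusted p under 0.05 is still expected for a share of 0.05 of the genes. A count near that share, here and below, is therefore no sign of a response. Over all genes 154 of 310 such differences were higher in Com, and over these short genes 24 of 59. The replicate block raised the count of the 457 genes to 49, against 4.35% of all genes, and in voom on the fragments, which called 0 after adjustment, it was 13. Unadjusted counts in voom and with median-ratio scaling, here and below, stand without the share of all genes. They do not show whether the 457 genes differed more often than others. Without DMSO replicate 1 the limma count was 42, against 2.38% of all genes. The median log2 difference was 0.02 over the 457 genes and -0.01 over all genes, and the former moved between -0.09 and 0.18 as 1 library was left out.

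Besides MIR4316, the rule named MIR4295 among the higher genes of Com against DMSO. MIR4295, in an intron of the SNARE gene VTI1A, read 5.22, 4.23 and 4.28 with DMSO, 5.54, 5.19 and 5.30 with Mito-Lipo, 5.12, 3.84 and 5.28 with Gilteritinib and 10.03, 6.90 and 6.11 with Com. The 3 Com libraries were the highest of the 12, with 18 to 30 fragments each, and the other conditions overlapped (log2 difference 0.62 ± 0.16 (SE), limma unadjusted p = 0.00315, adjusted p = 1.0). The genes that share its seed, looked at after their values were known, did not pass: the log2 differences were -0.08 for MIR301A, 0.56 for MIR301B, 0.34 for MIR454 and -0.60 for MIR3666. VTI1A itself had 15.6 FPKM with DMSO and 15.6 with Com.

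The named lower genes in Com were MIR4694 and MIR378J. MIR4694, on the other strand of NAV2, read 1.73, 1.38 and 1.90 with DMSO, 0.310, 0 and 0.625 with Mito-Lipo, 0.302, 0.679 and 0.660 with Gilteritinib and 0.711, 0.366 and 0 with Com. The DMSO libraries were the 3 highest, on 4 or 5 fragments each, and that is the condition through which the gene passed the threshold. MIR378J, in DDX52, read 2.29, 2.79 and 3.06 with DMSO, 2.27, 2.02 and 2.07 with Mito-Lipo, 1.55, 1.496 and 1.45 with Gilteritinib and 1.56, 1.08 and 1.85 with Com. Its DMSO values lay above all Com and Gilteritinib values and its log2 difference was -0.58 in Com and -0.57 in Gilteritinib against DMSO, with limma adjusted p of 1.0 in both.

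**Figure D3:**
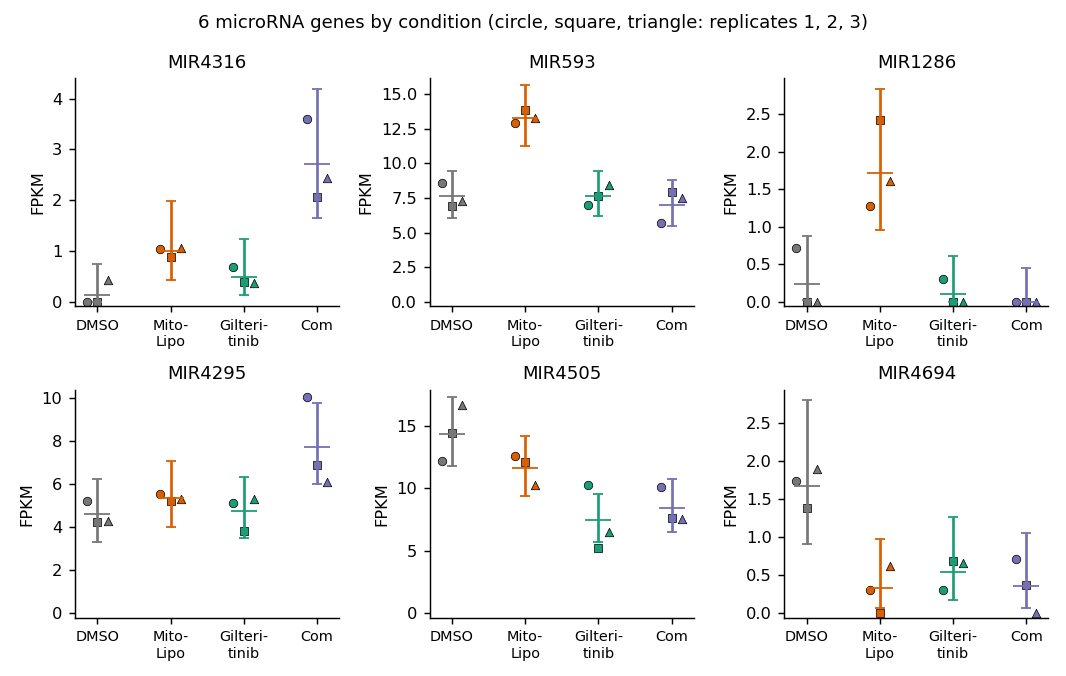
FPKM (y axis) of 6 microRNA genes by condition (x axis); circles, squares and triangles are replicates 1, 2 and 3, and the horizontal bar with its whiskers is the sum over 3 libraries with its exact Poisson 95% interval. MIR4316 reads 2.06 to 3.603 with Com and at most 0.427 with DMSO, and MIR593 reads 12.9 to 13.9 with Mito-Lipo and at most 8.60 elsewhere.

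In Mito-Lipo against DMSO, 0 of the 457 genes and 0% of all genes were called in limma, and voom also called 0. At an unadjusted p under 0.05 there were 33 genes (7.22%), 26 of them higher with Mito-Lipo, against 7.9% of all genes. Over all genes 920 of 1467 such differences were higher with Mito-Lipo, and over the 1508 other short genes 80 of 99. For the 457 genes, with median-ratio scaling 22 of 34 were higher, and without DMSO replicate 1 there were 55, against 7.84% of all genes. The replicate block gave 61, against 15.9% of all genes, and voom 22. The median over the 457 genes was 0.11, over the 1508 other short genes 0.09 and over all genes 0.03. The median of the 457 moved between 0.04, without Mito-Lipo replicate 1, and 0.26, without DMSO replicate 1, as 1 library was left out.

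MIR593 had the smallest p of the 457 genes in Mito-Lipo against DMSO. It lies in an intron of SND1, a nuclease-domain protein found with the silencing complex, at chr7:128081861-128081960, and it read 8.60, 6.91 and 7.28 with DMSO, 12.9, 13.9 and 13.3 with Mito-Lipo, 7.02, 7.61 and 8.45 with Gilteritinib and 5.68, 7.92 and 7.50 with Com. The 3 Mito-Lipo libraries were the highest of the 12, on 44 to 53 fragments against 20 to 32 in the others. Summed over 3 libraries, DMSO had 80 fragments, 7.61 FPKM (exact Poisson 95% interval 6.03 to 9.47) and Mito-Lipo had 149 fragments, 13.3 FPKM (exact Poisson 95% interval 11.3 to 15.6).

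The difference for MIR593 did not pass the adjusted threshold (log2 difference 0.74 ± 0.12 (SE), limma unadjusted p = 8.3e-05, adjusted p = 0.279; higher in 3 of 3 libraries). The adjusted p with the replicate block was 0.086 in limma. Com lay below Mito-Lipo by 0.85 on the log2 scale, and Gilteritinib by 0.73, with limma adjusted p of 0.346 and 0.221. With replicates 2 and 3 alone, a setting chosen after seeing the data, all 3 of these were called. SND1 had 113 ± 3.62 FPKM with DMSO and 124 ± 3.33 with Mito-Lipo (SD, n = 3), a log2 difference of 0.12.

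MIR1286, in an intron of the Nogo receptor gene RTN4R, read 0.711, 0 and 0 with DMSO, 1.27, 2.42 and 1.60 with Mito-Lipo, 0.310, 0 and 0 with Gilteritinib and 0, 0 and 0 with Com. It had 15 fragments in the Mito-Lipo libraries, 2 with DMSO, 1 with Gilteritinib and 0 with Com, and it passed the threshold through Mito-Lipo alone. Its host had 0.782 FPKM with DMSO and 1.36 with Mito-Lipo. For Com, 3 fragments, the one-sided 95% limit that a count of 0 allows, would give 0.370 FPKM over the 3 libraries.

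The named lower genes with Mito-Lipo were MIR4694, given above, and MIR3122. MIR3122, in an intron of DTL, a substrate receptor of a ubiquitin ligase that acts in DNA replication, read 21.7, 14.4 and 14.5 with DMSO, 14.9, 6.05 and 6.51 with Mito-Lipo, 18.2, 17.5 and 12.3 with Gilteritinib and 10.1, 13.7 and 14.6 with Com. Replicates 2 and 3 of Mito-Lipo were the lowest of the 12, while its replicate 1 lay within the DMSO range (log2 difference -0.89 ± 0.30 (SE), limma unadjusted p = 0.0122, adjusted p = 0.507). DTL read 38.0 FPKM with DMSO and 30.9 with Mito-Lipo, lower by 0.28 on the log2 scale (limma unadjusted p = 0.019).

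In Gilteritinib against DMSO, limma called 0 of the 457 genes and 0% of all, and voom called 0. At an unadjusted p under 0.05 there were 23, 10 of them higher, or 5.03%, against 1.86% of all genes; the block gave 55, against 4.96%, and voom 15. Without DMSO replicate 1 there were 42, against 3.18% of all genes. With all 12 libraries and no block, 105 of 346 such differences over all genes were higher, and 31 of 73 over the other short genes. MIR4505, on the other strand of MIDEAS, read 12.2, 14.4 and 16.6 with DMSO, 12.6, 12.1 and 10.3 with Mito-Lipo, 10.3, 5.21 and 6.51 with Gilteritinib and 10.1, 7.63 and 7.51 with Com. All 3 Gilteritinib values and all 3 Com values lay below all DMSO values (log2 difference -0.92 ± 0.20 (SE), limma unadjusted p = 9.23e-04, adjusted p = 1.0). Among the higher genes, MIR7976 in TPRA1 read 10.5, 9.22 and 8.73 with DMSO, 16.5, 12.9 and 11.0 with Mito-Lipo, 13.2, 16.1 and 11.6 with Gilteritinib and 13.4, 13.3 and 10.9 with Com, a log2 difference of 0.47 for Gilteritinib. MIR5692B, outside other genes, had 2 fragments with DMSO, 15 with Mito-Lipo, 11 with Gilteritinib and 10 with Com in 3 libraries each. All 9 treated libraries of both genes lay above their 3 DMSO libraries. MIR5692B, with so few DMSO fragments, passed the threshold through treated libraries alone, so its gap was partly tied to the threshold.

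In Com against Gilteritinib, limma called 0 of the 457 genes and 0% of all, and voom 0. At an unadjusted p under 0.05 there were 26 (5.69%), 20 of them higher in Com, against 1.63% of all; the block gave 45, against 4.39%, and voom 19. In limma without the block, 149 of 303 such differences over all genes were higher in Com, and 34 of 80 over the other short genes. MIR4263, in the BRCA1-complex gene BABAM2, read 9.62, 5.89 and 6.68 with Gilteritinib and 11.3, 14.8 and 13.6 with Com. MIR8075, in the ubiquitin ligase scaffold gene CUL4A, read 7.86, 7.13 and 10.6 with Gilteritinib and 3.55, 5.50 and 3.25 with Com. MIR548Q had 7 fragments with Gilteritinib and 0 with Com, where the same limit of 3 fragments would give 0.289 FPKM over the 3 libraries. It reached 1 FPKM only in replicates 2 and 3 of Mito-Lipo and replicate 3 of Gilteritinib, so its difference from Com was partly tied to the threshold. The log2 difference was 0.78 for MIR4263 and, for MIR8075 and MIR548Q, -0.91 and -0.65, with limma adjusted p of 1.0 for each.

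In Com against Mito-Lipo, limma called 0 of the 457 genes and 0% of all, and voom 0. At an unadjusted p under 0.05 there were 31 (6.78%), 9 of them higher in Com, against 5.53%; the block gave 49, against 12.2%, and voom 15. With median-ratio scaling 14 of 30 were higher in Com. Without this scaling and the block, 262 of 1027 such differences over all genes were higher in Com, and 16 of 101 over the other short genes. MIR4316 and MIR588 were the higher genes named, and MIR593, MIR1286 and MIR548Q had the smallest p among the lower. For MIR1286, which passed the threshold through Mito-Lipo alone, this difference was built in. The differences of MIR548Q and MIR4316 were partly tied to the threshold, which each passed with the help of the condition where it is higher. MIR588, outside other genes, read 1.49, 0.380 and 0.904 with Mito-Lipo and 4.11, 2.12 and 2.78 with Com.

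In Gilteritinib against Mito-Lipo, limma called 0 of the 457 genes and 0% of all, and voom 0. At an unadjusted p under 0.05 there were 30 (6.56%), 6 of them higher with Gilteritinib, against 9.52%; the block gave 58, against 18%, and voom 20. Without Mito-Lipo replicate 3 there were 57, against 12.02% of all genes. With all 12 libraries and no block, 549 of 1768 such differences over all genes were higher with Gilteritinib, and 17 of 116 over the other short genes. MIR3685, on chromosome 12 outside other genes, read 6.80, 2.54 and 2.82 with Mito-Lipo and 7.80, 7.89 and 11.9 with Gilteritinib, and all 3 Gilteritinib values were above all Mito-Lipo values. MIR23B, in AOPEP, read 0.767, 0.325 and 0.258 with Mito-Lipo and 0.748, 2.24 and 1.36 with Gilteritinib, which overlap. For the interaction, which sets the effect of mitoxantrone with gilteritinib against its effect without, limma called 0 of the 457 genes and 0% of all; 32 had an unadjusted p under 0.05, against 2.91% of all genes, and voom called 0, with 21 unadjusted.

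With replicates 2 and 3 alone, chosen after seeing the data, limma called 13 of the 457 genes (2.84%) between Mito-Lipo and DMSO, against 6.41% of all genes. It called 3 (0.656%) between Gilteritinib and DMSO, against 0.614%, 10 (2.19%) between Com and Mito-Lipo, against 6.13%, 13 (2.84%) between Gilteritinib and Mito-Lipo, against 6.63%, and 7 (1.53%) for the interaction, against 2.97%. All these shares but that of Gilteritinib against DMSO, which was near it, were below the share of all genes. It called 0 in Com against DMSO, against 0.0485% of all, and 0 in Com against Gilteritinib, against 0.0754%, where 57 and 45 had an unadjusted p under 0.05, against 7.51% and 6.46% of all genes. voom was not run on these libraries. MIR593, MIR1286, MIR3122 and MIR3685 were among the calls of all 3 comparisons with Mito-Lipo. Of these, MIR1286 had passed the threshold through Mito-Lipo alone and so had to differ, and its calls are no result. MIR3122 fell with Mito-Lipo by 1.09 on the log2 scale against DMSO (limma adjusted p = 0.0119), and MIR593 rose by 0.85 (adjusted p = 0.00219). MIR26B, in the phosphatase gene CTDSP1, read 1.08, 2.51 and 2.36 with DMSO and 1.26, 0.706 and 0.343 with Gilteritinib, and was called against DMSO in both single-drug conditions there and in neither with all 12 libraries. MIR26B was chosen after its values were seen. These 2-library groups rest on a spread from 4 residual degrees of freedom.

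Replicate 1 differed from replicates 2 and 3 in more of the 457 genes than any pair of treatments did. With condition in the limma fit, 81 genes were called in replicate 1 against replicate 2, against 26.7% of all genes, and 67 of them were higher in replicate 1, or 14.7% of the 457 against 17.3% of all. In replicate 1 against replicate 3, 99 genes were called, against 33.7% of all, and 95 were higher in replicate 1, or 20.8% against 24.3%. The shares called, 17.7% and 21.7%, were below those of all genes. With median-ratio scaling 54 genes (11.8%) were called as higher in replicate 1 than in 2, against 10.01% of all, and 80 (17.5%) as higher than in 3, against 12.6% of all, so the order of the shares higher in replicate 1 was the reverse. Of the 81 and 99 called genes, 7 each had passed the threshold through replicate 1 alone and so had to differ, which leaves 74 and 92. In replicate 2 against replicate 3, limma called 0 of the 457 genes and 0% of all; 51 genes (11.2%) had an unadjusted p under 0.05, against 4.45%, and voom called 0, with 33 unadjusted.

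The medians were shifted as well. Over the 457 genes the median log2 difference was 0.21 in replicate 1 against 2, 0.33 in replicate 1 against 3 and 0.13 in replicate 2 against 3. Over all genes it was 0.07, 0.11 and 0.03, and over the 1508 other tested genes of at most 200 nt 0.15, 0.27 and 0.12. With median-ratio scaling the medians were 0.13, 0.22 and 0.09 over the 457 genes and -0.01, -0.01 and -0.02 over all genes, so the size of the shift and the sign over all genes depend on the scaling. Without this scaling, the medians of the microRNA genes lay nearer to those of other short genes than to those of all genes, a difference that was not tested. Of the 81 and 99 called genes, 57 were shared, which is 70.4% of the first set and 57.6% of the second, and both sets use the replicate 1 libraries.

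Calls were most frequent in the fifth of the genes with the most fragments. In replicate 1 against replicate 3, 40 of 92 genes with at least 293 fragments in all were called (43.5%), and 13 of 93 with 13 to 39 fragments (13.98%). In replicate 1 against replicate 2, the counts were 30 of 92 and 15 of 93.

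**Figure D4:**
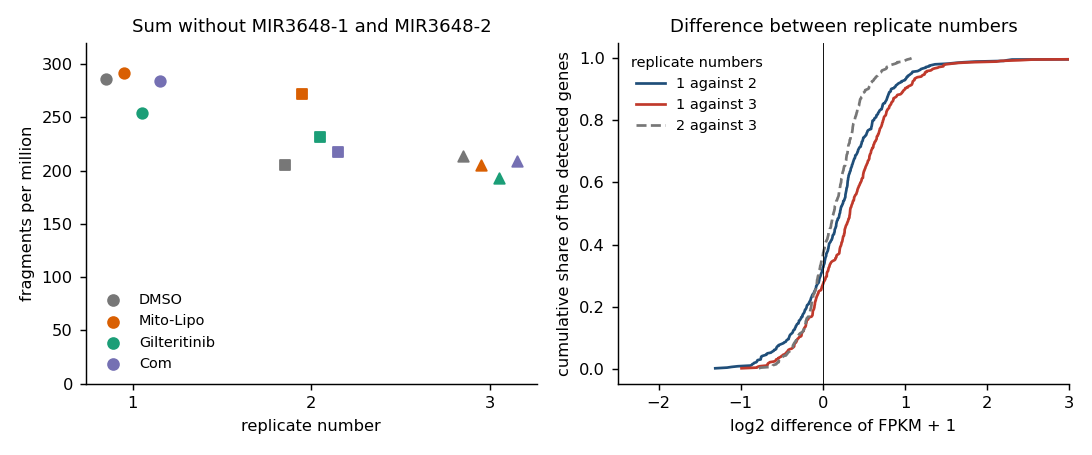
Left, fragments per 1000000 of the library, summed over 455 microRNA genes, without MIR3648-1 and MIR3648-2 (y axis), in each library by replicate number (x axis), with color for the condition; right, cumulative share of the 457 genes (y axis) against the log2 difference of FPKM + 1 between replicate numbers (x axis), with condition in the fit. The replicate 1 libraries read 254 to 292 and the replicate 3 libraries 193 to 214; 2 genes lie beyond 3 on the right axis and are not drawn.

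Summed over 455 of the genes, all but MIR3648-1 and MIR3648-2, replicate 1 libraries had 279 ± 16.9 fragments per 1000000 of the library (SD, n = 4), replicate 2 had 232 ± 28.7 and replicate 3 had 205 ± 8.63. By condition the sums were 235 ± 44.2 with DMSO, 256 ± 45.3 with Mito-Lipo, 226 ± 30.7 with Gilteritinib and 237 ± 41.2 with Com (n = 3). Differences between the means of conditions were smaller than the spread within a condition, which holds the replicate numbers. Within each replicate number, Gilteritinib lay below Mito-Lipo, at 254 against 292, 232 against 272 and 193 against 205. Replicate 1 and replicate 3 did not overlap, and replicate 2 overlapped with both.

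MIR718, MIR5190 and MIR3181 had the smallest p in both comparisons with replicate 1, and all 3 passed the threshold through replicate 1 alone. MIR718 read 5.15, 4.25, 2.07 and 4.06 in replicate 1 of DMSO, Mito-Lipo, Gilteritinib and Com, and had 1 fragment in the 8 other libraries together (this gap was built in by the threshold and no test is given). Its host IRAK1 went the other way, with 65.1 FPKM in replicate 1 and 73.6 in replicate 2. MIR5190, in LDLRAD4, read 2.08, 1.86, 1.81 and 1.78 in replicate 1 and had 1 fragment in the 8 others, while its host averaged 7.52, 5.29 and 4.71 FPKM in replicates 1, 2 and 3.

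MIR3181, in the deubiquitinase gene CYLD, read 1.90, 1.36, 0.994 and 2.73 in replicate 1 and had 3 fragments in the other 8 libraries. MIR221 went the other way. It read 8.58, 16.3 and 15.7 with DMSO, 9.24, 26.6 and 19.3 with Mito-Lipo, 10.1, 20.5 and 18.97 with Gilteritinib and 9.56, 18.7 and 14.7 with Com, and replicate 1 was the lowest in each condition (-1.03 ± 0.10 (SE) against replicate 2, limma adjusted p = 4.76e-04). The genes named for replicate 2 against replicate 3, MIR634, MIR3161 and MIR4762, had limma adjusted p of 0.333, 0.859 and 0.859.

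MIR3648-1 showed the widest gap between replicate numbers. Its 180 nt lie at chr21:8208473-8208652 within RNA45SN2, a copy of the ribosomal RNA precursor by the RefSeq annotation, which has several near-identical copies, so its reads cannot be placed with certainty. It read 2600.2, 1907, 1773 and 2583 FPKM in replicate 1 of DMSO, Mito-Lipo, Gilteritinib and Com. In replicate 2 it read 158, 0.175, 0.151 and 9.77, and in replicate 3 403, 0, 0.587 and 18.6. Replicate 1 lay above all other libraries, and within replicates 2 and 3 the order was DMSO, then Com, then Mito-Lipo and Gilteritinib.

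RNA5-8SN2, a 5.8S ribosomal RNA gene of the same precursor, moved with MIR3648-1. It read 155, 81.5, 114 and 153 FPKM in replicate 1, 11.9 and 75.1 in the other DMSO libraries, and at most 2.83 in the 6 remaining. The Pearson correlation of log2(FPKM + 1) with MIR3648-1 was 0.974 over 12 libraries that share their replicate split. RNA5-8SN2 was among the copies that followed most closely. The correlation was 0.797 for RNA5-8SN3 and 0.723 for RNA5-8SN1, and RNA5-8SN3 read 105 FPKM in replicate 2 of Com against 66.3 in its replicate 1. An unnamed ribosomal RNA gene on a scaffold had 0.275. With replicates 2 and 3 alone, MIR3648-1 was called as lower in Mito-Lipo than in DMSO, by 7.87 on the log2 scale (limma adjusted p = 8.78e-04). The part of ribosomal RNA carried into the libraries in this was not tested. MIR3648-1 and MIR3648-2 made up 54.2% to 62.5% of all fragments on the 457 genes in replicate 1, 12.2% and 25.7% in the other DMSO libraries and at most 1.60% elsewhere.

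Lists of microRNA genes were drawn up by role, with earlier results of these data known, and described by counts. Of 40 hematopoietic microRNA genes, 18 had a row and 13 were detected. In Com against DMSO 10 of the 13 were higher and 3 lower, with a median of 0.16 beside -0.01 over all genes, and 1 had an unadjusted p under 0.05. In Mito-Lipo against DMSO 11 were higher, with a median of 0.23, and 0 had an unadjusted p under 0.05. 0 of the 13 were called after adjustment in any comparison of conditions.

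MIR221, whose family represses the receptor kinase KIT, was the most abundant of the list, and MIR222 of the same host, MIR222HG, read 2.77, 2.01 and 4.69 with DMSO, 2.93, 3.44 and 5.46 with Mito-Lipo, 1.54, 2.96 and 5.52 with Gilteritinib and 7.49, 2.40 and 2.62 with Com. These neighbours share a seed and a host, and for MIR222 replicate 1 was the lowest in 2 of 4 conditions and the highest in 1. The 4 MIR181 genes, which act in lymphoid and myeloid differentiation, come as pairs in 2 hosts. MIR181B1 read 6.81, 6.29 and 5.24 with DMSO, 7.66, 7.16 and 7.96 with Mito-Lipo, 10.1, 7.66 and 7.205 with Gilteritinib and 11.1, 6.13 and 7.35 with Com, and MIR181A2 read 8.83, 1.76 and 4.69 with DMSO, 7.89, 3.15 and 3.18 with Mito-Lipo, 6.16, 2.96 and 2.40 with Gilteritinib and 8.53, 3.46 and 2.62 with Com. MIR181A2 was highest in replicate 1 in every condition, and its host MIR181A2HG averaged 3.73 FPKM there against 2.17 and 1.86 in replicates 2 and 3. MIR181A1, in the host of MIR181B1, read 1.51, 1.01 and 1.38 with DMSO and 3.10, 3.20 and 2.36 with Com. With Mito-Lipo it read 1.80, 2.01 and 1.36, and with Gilteritinib 5.50, 1.48 and 2.64. All its Com values lay above all its DMSO values, on 33 and 15 fragments in all.

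MIR15B and MIR16-2, in SMC4, and MIR16-1, in DLEU2, belong to a family that represses BCL2. Their means were 1.46, 2.97 and 1.23 FPKM. The other detected genes of the list, MIR30E, MIR126, MIR128-1, MIR181B2 and MIR29A, had means of 0.646 to 4.79 FPKM.

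Of 15 genes of the MIR17 family clusters, 3 had a row, and all 3 are in the intron of the replicative helicase gene MCM7. MIR25 read 10.2, 13.5 and 9.03 with DMSO, 6.49, 13.1 and 8.34 with Mito-Lipo, 4.61, 11.3 and 12.6 with Gilteritinib and 6.77, 15.01 and 8.25 with Com. MIR93 and MIR106B had means of 1.20 and 1.64 FPKM. None of the 3 had an unadjusted p under 0.05 in a comparison of conditions, while MCM7 was lower with Mito-Lipo than with DMSO by 0.26 on the log2 scale (limma unadjusted p = 0.0225, adjusted p = 0.56).

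Of 11 p53-induced microRNA genes, 4 had a row and 3 were detected: MIR194-1 and MIR215, neighbours on the other strand of IARS2, and MIR107 in PANK1. MIR215 read 3.78, 5.03 and 3.31 with DMSO, 4.73, 6.30 and 3.87 with Mito-Lipo, 5.94, 4.94 and 4.56 with Gilteritinib and 5.43, 6.66 and 7.08 with Com. All 3 Com values of MIR215 lay above all 3 DMSO values (log2 difference 0.56 ± 0.17 (SE), limma unadjusted p = 0.00867, adjusted p = 1.0). MIR194-1 read 9.14, 3.25 and 4.64 with DMSO, 5.25, 5.56 and 4.42 with Mito-Lipo, 11.4, 4.48 and 5.28 with Gilteritinib and 12.4, 4.83 and 5.43 with Com, and MIR107 had a mean of 1.37. The 3 genes had positive differences in Com against DMSO, with a median of 0.35 beside -0.01 over all genes, and 0 of the 3 passed after adjustment. They were also all higher in Gilteritinib against DMSO, with a median of 0.29. In Mito-Lipo against DMSO 2 were higher and 1 lower, with a median of 0.24. In replicate 1 against replicate 2 the median was 0.88, and 2 were called as higher. MIR34AHG, the host transcript of a p53 target microRNA, read 4.10, 1.67 and 1.74 with DMSO, 13.4, 2.61 and 2.17 with Mito-Lipo, 3.72, 2.60 and 1.73 with Gilteritinib and 9.70, 3.06 and 2.53 with Com. Replicate 1 was the highest in each condition, and Mito-Lipo and Com lay above DMSO in each replicate number.

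Of 12 let-7 genes, 4 had a row and 2 were detected, MIR98 at 4.99 and MIRLET7G at 1.41 FPKM. MIR98, in an intron of the ubiquitin ligase gene HUWE1, read 5.36, 2.09 and 5.35 with DMSO and 6.46, 7.68 and 6.73 with Mito-Lipo. In Mito-Lipo against DMSO 1 of the 2 had an unadjusted p under 0.05 and 0 passed after adjustment. Of 6 HOX cluster microRNA genes, 1 had a row, MIR196A2, at a mean of 0.0210 FPKM, and 0 were detected, although HOXA9 was at 18.5.

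The genes that make and use microRNAs were expressed in all conditions. All 28 of the list had a row and 26 were tested. DROSHA read 22.1 to 27.3 FPKM over the 12 libraries, DGCR8 10.7 to 15.5, XPO5 24.5 to 33.6, DICER1 15.2 to 17.0 and AGO2 15.4 to 23.5. LIN28A and LIN28B, which block let-7 maturation, were at or below 0.0936. In Com against DMSO 14 of the 26 were higher and 12 lower, and 0 had an unadjusted p under 0.05. In Mito-Lipo against DMSO 1 did, the RNA-editing enzyme gene ADARB1, higher by 0.44 on the log2 scale (limma adjusted p = 0.4).

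The changes of genes and hosts were set side by side for 338 genes in an intron on the same strand whose host was also tested. In Mito-Lipo against DMSO the median log2 difference was 0.12 for the genes and 0.03 for their hosts, with a Pearson correlation of 0.252 across pairs. In Com against DMSO the correlation was 0.128, and in replicate 1 against replicate 2 0.385. Pairs share libraries and some share a host, so these are descriptions.

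Markers of the line were read as well. FLT3 had a mean of 158 FPKM, LYZ 699, SPI1 77.6 and MEIS1 39.7, while MPO was at 2.16 and ITGAM at 1.95. In Mito-Lipo against DMSO, 6 of the 11 myeloid markers were higher and 5 lower. At an unadjusted p under 0.05, 3 were higher and 0 lower, and 0 passed after adjustment. CSF1R averaged 18.2 ± 5.94 FPKM with DMSO and 33.3 ± 13.0 with Mito-Lipo (SD, n = 3), and ITGAM 1.34 ± 0.729 and 3.56 ± 1.99. Among the lower, SPI1 averaged 90.2 ± 16.0 with DMSO and 78.2 ± 25.3 with Mito-Lipo, and CEBPA 62.1 ± 3.42 and 57.9 ± 10.6. Of 14 markers of other cell types, 11 had a mean of at most 0.106 FPKM, and PECAM1 and HBB were at 15.3 and 1.04. All 3 of the 14 that were tested had positive differences in Mito-Lipo against DMSO, with a median of 0.54 and 0 at an unadjusted p under 0.05. PECAM1 read 9.17 to 13.7 FPKM in replicate 1, 25.1 and 24.8 in replicates 2 and 3 of Mito-Lipo and 14.1 to 15.5 in the 6 others. The part of these markers in the results with Mito-Lipo and with the replicate number was not tested.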

How the data were processed

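RNA-seq libraries of MV4-11 cells were measured in 4 conditions with 3 libraries each. Per the labels, total RNA was taken with a miRNeasy kit, amplified by the Geo-seq protocol and made into libraries with a TruePrep kit. The authors deposited 1 table of FPKM values for Ensembl gene IDs. The submitters' processing notes name Bowtie 0.12.9, Cufflinks 2.1.1, HTSeq, DESeq2 and a mouse build without roles, while the IDs are human. Symbols were matched for 41461 of 43876 IDs, and positions were taken from GENCODE 29 on GRCh38. The members and lists were chosen with earlier results of these data known.

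Genes at an FPKM of 1 or more in at least 3 of 12 libraries were tested as log2(FPKM + 1) in limma 3.58.1 with R 4.3.3, all 12 libraries in 1 fit with a trend in the variance, and p-values were adjusted by Benjamini-Hochberg. For replicate numbers, condition was kept in the fit. Fragments were recovered from the steps in FPKM, at 31725010 to 41330678 fragments per library, and tested in voom as an alternative. Lengths from 20 to 40000 nt were searched, and for 18570 of 18574 tested genes all 12 values were whole at the shortest length that fitted. The tolerance was 0.02 of a fragment, widened with length and fragment number. Genes other than microRNA genes used the length found in this way. The script was tested on simulated data. The replicate numbers come from the sample titles. All 18 pairs of libraries with the same number had deviations from their group means that correlated positively across tested genes (0.165 to 0.657). For the 36 pairs with different numbers the range was -0.562 to 0.434, which overlaps. Over the microRNA genes the ranges were -0.0142 to 0.579 and -0.426 to 0.322. The number was therefore used as a block in an alternative. Whether it pairs replicates 2 and 3 across conditions was not tested. Named genes were MIR4316, the 12 with the highest mean, the 2 with the smallest p per direction and comparison, those called, the 3 with the smallest p per pair of replicate numbers, those at the threshold and those on the lists. Alternatives varied the pseudocount, filter, scaling, variance trend, libraries, block and tool. scipy 1.17.1 and pandas 2.3.3 were used. 1 marker gene of the lists is not reported here.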

Additional observations from a re-analysis of the deposited data

Results flagged for a closer look

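In 36 groups of 4 libraries (12 genes with the highest means in each replicate number), 4 libraries stood apart by Dixon's criterion, which chance meets in about 1 in 20 groups. MIR3648-1 stood apart in DMSO at 157.79 FPKM among the replicate 2 libraries and at 402.855 among the replicate 3 libraries, where the other conditions read at most 9.77 and 18.6. MIR1537 stood apart in replicate 1 of Com, at 191.982 FPKM. MIR548AQ stood apart in replicate 2 of Com, at 29.8204 FPKM.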

How the results depend on the processing

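Of the 457 genes, 1 was called in Com against DMSO. The count was 0 with a mean FPKM of at least 5 as filter, with no filter, with the 6 libraries compared alone, with a pseudocount of 0.1, with replicates 2 and 3 alone and in voom on the fragments. With the replicate number as a block it was also 0. The counts of the other comparisons of conditions were 0 with and without the block, so they say little of stability. The unadjusted counts rose with the block, as given above. Leaving out 1 library gave 0 to 1, and among these settings the call was kept only without DMSO replicate 3. The count stayed at 1 with median-ratio scaling and with no trend in the variance. With replicates 2 and 3 alone, chosen after seeing the data, the counts were 3 in Gilteritinib against DMSO (0.614% of all genes), 13 in Mito-Lipo against DMSO (6.41%), 10 in Com against Mito-Lipo (6.13%), 7 for the interaction (2.97%) and 13 in Gilteritinib against Mito-Lipo (6.63%). The counts of the 3 comparisons with Mito-Lipo include MIR1286, which had to differ. Gilteritinib against Mito-Lipo ranged from 0 to 1 when 1 library was left out, with 1 without Mito-Lipo replicate 1. Replicate 1 against replicate 2 gave 41 genes with the mean filter (26.97% of those tested, against 36.8% of all genes), 49 with no filter (6.33% against 9.49%) and 51 to 87 when 1 library was left out, the lowest without Com replicate 2 (11.2% against 14.7%). Replicate 1 against replicate 3 gave 51 with the mean filter (33.6% against 40.4%), which tests fewer genes. Asking for 1 FPKM in all 12 libraries left 225 detected genes. For the other changes the cause was not tested. Depth limits the low genes most, since the median value rested on 9 fragments.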
